A study of Ambystoma mexicanum with 18 samples.

Results

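Distal blastema cells of the axolotl that overexpressed Tig1 were compared with control cells at 3 and at 8 days post electroporation (dpe), and the question addressed here was whether the effect of overexpression differed between these times. The comparison was an interaction contrast. For each gene, the control mean at 8 dpe was subtracted from the average of both overexpressing groups at 8 dpe, the same was done at 3 dpe, and the second difference was subtracted from the first. All 18 of the 18 RNA-seq libraries of the series entered it, 3 in each of 6 groups. Every group came from forelimb blastemas of Hoxa13:mCherry transgenic animals, in which the cells of the forming hand carry mCherry, electroporated once that domain was visible. Tig1 cells and Tig1P155A cells were mCherry+/GFP+ cells that had received Tig1-T2a-GFP or Tig1P155A-T2a-GFP, the latter with a mutated latexin domain. Control cells were the mCherry+/GFP- cells of electroporated blastemas, so that no cells electroporated with GFP alone were among the libraries, and the control pools mixed non-transformed cells from animals of both plasmids. The epidermis was removed, cells of pooled blastemas were sorted, and each library was made from 300 cells by SMARTseq2. The libraries were called biological replicates without a statement that each had its own pool of animals, so the p-values measure the spread among these libraries. "Overexpressing" stands below for Tig1 and Tig1P155A cells together.

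A blastema is the mound of progenitor cells that forms on an amputated limb and rebuilds only the missing segments. Its cells keep a record of their position along the proximo-distal axis. Meis1, Meis2 and Prod1 mark proximal cells and Hoxa13 marks the future hand. Tig1, also known as Rarres1, is a retinoic acid-responsive cell surface protein, and retinoic acid is known for giving blastema cells a more proximal identity. A distal blastema of this stage normally goes on growing and begins to lay down the cartilage of the hand, so a difference from control can shrink because either kind of cell moved.

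Total counts per library lay between 9732514 and 23086124, of which mitochondrial genes took 18.4% to 65.4%. The other genes were left with 4469274 to 17629287 counts. Levels are given in CPM (counts scaled to the library total) after TMM scaling, and 3 counts corresponded to 0.0872 to 0.455 CPM. The gene model paired with Tig1 (LOC115479139, AMEX60DD001823, chromosome arm 10p, 881792072 to 881958443, build AmexG_v6.0-DD) stood at 2.85 to 8.81 CPM in control cells at 3 dpe and 3.85 to 8.19 CPM at 8 dpe. In overexpressing cells it stood at 183 to 514 CPM at 3 dpe and 151 to 343 CPM at 8 dpe. The labels of control and overexpressing cells thus held in all 18 libraries, while those of form and time were not checked by this gene. Its interaction was −0.43 ± 0.53 (SE, log2; edgeR quasi-likelihood test, Benjamini-Hochberg adjusted p = 0.904). Some libraries stood apart in the summed CPM of marker lists. Control replicate 1 at 3 dpe held 498 CPM of erythroid genes against 36.7 and 45.4 in the other controls of that time. Tig1P155A replicate 3 at 3 dpe and Tig1 replicate 1 at 8 dpe held 5580 and 9533 CPM of cartilage genes, each the highest of the 6 overexpressing libraries of its time. Tig1 replicate 3 and Tig1P155A replicate 1 at 8 dpe held 3055 and 1912 CPM of skeletal muscle genes against 156 to 216 in the other 4 overexpressing libraries. Counts are therefore also given without both muscle-rich libraries and without all 5.

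The effects at both time points were alike in direction, and fewer genes were called at 8 dpe. Of 25377 genes tested, 4301 (16.9%) were called higher and 3936 (15.5%) lower in overexpressing cells at 3 dpe, at an adjusted p under 0.05. At 8 dpe, 3020 (11.9%) were called higher and 896 (3.53%) lower. Lower genes thus made up most of the loss of calls. Counts of list members called at either time, given below, are to be read beside these shares of all genes. The genes called lower at 3 dpe had a median log2 fold change of −2.46 at that time and −1.06 at 8 dpe. For genes called higher at 3 dpe the medians were 3.17 and 2.16. Because these genes were chosen by their size at 3 dpe, a smaller size at 8 dpe is partly built into the choice. In the reverse choice, genes called lower at 8 dpe had medians of −1.69 at 8 dpe and −2.43 at 3 dpe, and 76.1% of them had the smaller size at the very time that chose them. Genes called higher at 8 dpe had medians of 3.33 at 8 dpe and 3.55 at 3 dpe. Of the 4301 genes called higher at 3 dpe, 2776 were also called higher at 8 dpe and 3 were called lower. Of the 3936 called lower, 774 were also called lower at 8 dpe and 2 were called higher. Over 11557 genes with at least 4 CPM on average, the effects at 3 and 8 dpe had r = 0.879, a description across genes, which are not independent.

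**Figure D1:**
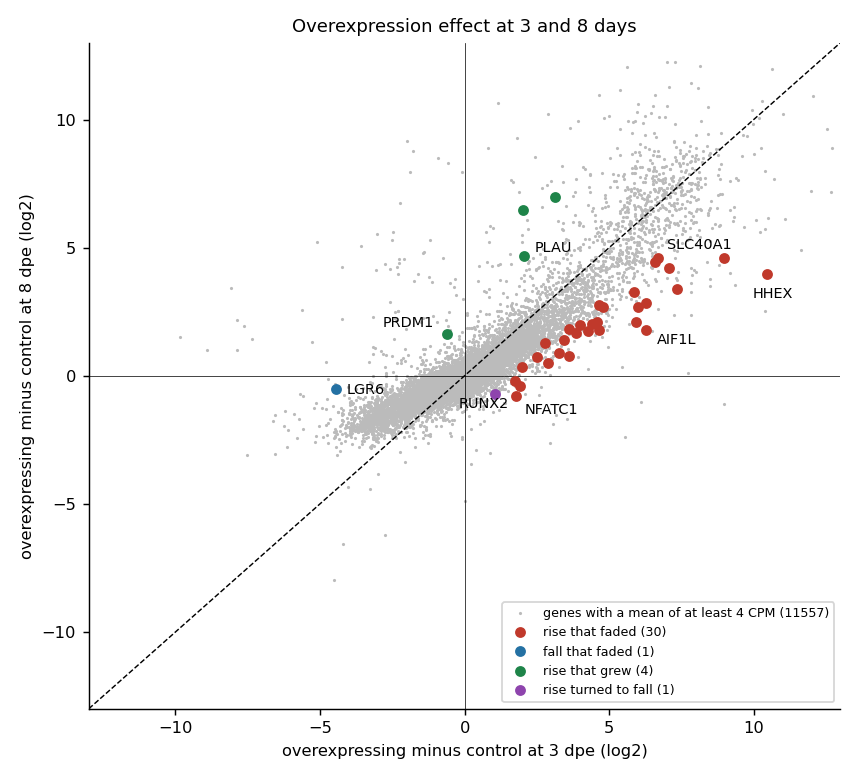
Log2 fold change of overexpressing over control cells at 3 dpe (x axis) and at 8 dpe (y axis). Each point is 1 of the 11557 genes with at least 4 CPM on average, out of 25377 tested. The 36 genes called in the interaction are marked, and the cloud follows the diagonal (r = 0.879 over genes with at least 4 CPM) with few genes in the quadrants of opposite sign.

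The interaction itself was called for 36 genes, 0.142% of those tested. It was below 0 for 31 genes (0.122%) and above 0 for 5 (0.0197%). At an unadjusted p under 0.05 it was above 0 for 1348 genes (5.31%) and below 0 for 1057 (4.17%). Among the 36, a rise that faded was the common case. A rise at 3 dpe that was smaller or no longer called at 8 dpe was found in 30 genes, and a fall that faded in 1, LGR6. A rise that grew or appeared at 8 dpe was found in 4 genes, PLAU, PRDM1, LOC115482310 and LOC115370421. One gene, DR999_PMT05800, turned from a rise to a fall, and it was called in 0 of 18 fits that left out 1 library. No fall grew and no fall turned into a rise among the 36. This balance belongs to the filter and the test used. With every gene of at least 1 count, edgeR called 418 interactions above 0 and 241 below, among them 218 rises and 211 falls that faded, 148 rises and 10 falls that grew and 57 falls that turned into rises. DESeq2 gave 188 above and 226 below, with 215 rises and 118 falls that faded, 58 rises and 4 falls that grew and 12 falls that turned into rises. Of the 30 faded rises, 22 were still called higher at 8 dpe, with median log2 fold changes over the 30 of 4.49 at 3 dpe and 1.89 at 8 dpe.

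The count of 36 depended on single libraries. It was 6 without both muscle-rich libraries and 10 without all 5 that stood apart, all 6 and 8 of the 10 being among the 36. Leaving out single libraries gave 3 (control replicate 3 at 8 dpe) to 45 (control replicate 3 at 3 dpe). It fell by more than 1.5 times without control replicate 2 (10) or any of the Tig1P155A replicates 1, 2 and 3 (13, 4 and 6) or Tig1 replicates 1 and 2 (19 and 20) at 3 dpe. The same held at 8 dpe without control replicates 1 and 3 (21 and 3), Tig1 replicates 1 and 2 (17 and 9) or Tig1P155A replicates 1, 2 and 3 (16, 4 and 6). LOC115482310, AIF1L and LOC115092336 were called in all 18 fits that left out 1 library. With library size alone in place of TMM, edgeR called 0 genes, these 3 included, and DESeq2 called 414, all 36 among them. All 36 genes kept their sign in every setting tried. Of the other genes described below, PLAU was called in 14 of the 18 fits that left out 1 library, and LGR6 in 13. NFATC1 and NAAA were called in 12, CD9 in 10, KCTD12 in 4 and SLC40A1 in 3. HHEX, RGS2.L, RUNX2 and PRDM1 were called in 2 each, DHRS3 in 1, and CLCN7 and DR999_PMT05800 in 0.

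Control cells moved more than overexpressing cells in most of the called genes. An interaction is the change of overexpressing cells from 3 to 8 dpe minus that of control cells. In control cells alone, 68 genes (0.268%) were called higher and 39 (0.154%) lower at 8 than at 3 dpe. In overexpressing cells, with 6 libraries at each time, 1180 (4.65%) were called higher and 337 (1.33%) lower. For the 30 faded rises the control point estimate was higher at 8 dpe in 30, and 17 passed the test. Overexpressing cells were lower in 26, and 13 passed. The control change was the larger one in 26 of the 30, with a median of 1.88 against −0.61 in overexpressing cells. All 4 rises that grew were called lower in control cells at 8 dpe and in none was the change of overexpressing cells called. These changes are parts of the contrast that chose the 36 genes and are given as a description.

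**Figure D2:**
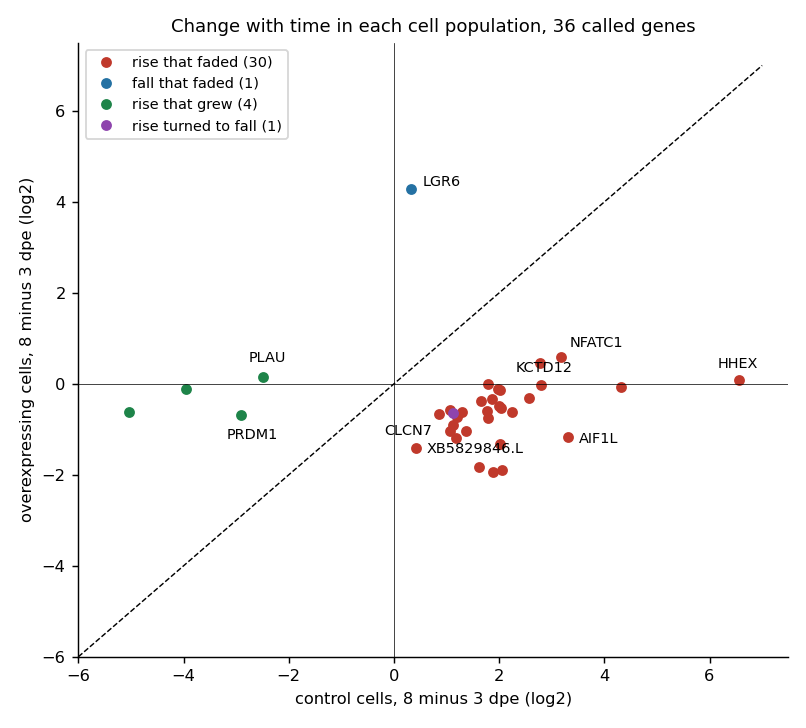
Log2 change from 3 to 8 dpe in control cells (x axis) and in overexpressing cells (y axis) for the 36 genes called in the interaction. Faded rises lie to the right of 0 with a median of 1.88 on the control axis and −0.61 on the other, and the 4 rises that grew lie to the left of 0.

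AIF1L, an actin-binding relative of the macrophage protein AIF1, showed the most firmly called fading rise (AMEX60DD050391, 8p, 48166447 to 48305779). Control cells stood at 0.454, 0.494 and 0.934 CPM at 3 dpe and at 4.72, 6.7 and 7.28 CPM at 8 dpe. Tig1 cells stood at 45.1, 49.9 and 36.4 CPM and then at 19, 25.9 and 7.04 CPM, and Tig1P155A cells at 57.5, 49.6 and 56.4 CPM and then at 38.8, 23.9 and 18 CPM. Control cells thus rose while overexpressing cells fell, and at 8 dpe only Tig1 replicate 3 overlapped the controls. The log2 fold change was 6.27 at 3 dpe and 1.79 at 8 dpe, and the interaction was −4.48 ± 0.54 (adjusted p = 0.00186).

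HHEX, a homeobox factor of early endothelium and blood (AMEX60DD052633, 8q, 440406218 to 440518996), had no count in any control library at 3 dpe and 0.0983, 0.659 and 1.07 CPM in those of 8 dpe. Overexpressing libraries held 4.86 to 13.6 CPM (median 10.2) at 3 dpe and 5.35 to 14.7 CPM (median 9.29) at 8 dpe. Their level hardly moved, and the difference lay in the controls. At 3 dpe overexpressing cells were at least 266-fold higher, taking 3 counts over the control libraries as the floor. The fitted interaction of −6.49 ± 1.20 (adjusted p = 0.0457) rests on that group at 0 and is no bound.

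RGS2.L, a GTPase-activating protein that damps Gq signalling (AMEX60DD018519, 1q, 726769438 to 726775627), stood at 1.82, 0.349 and 0.975 CPM in the controls of 3 dpe and at 7.37, 4.89 and 6.24 CPM at 8 dpe. Overexpressing libraries held 19.6 to 40.3 CPM (median 25.9) and then 12.5 to 31.6 CPM (median 21). Both times kept overexpressing libraries above every control. The log2 fold change was 4.66 at 3 dpe and 1.78 at 8 dpe (interaction −2.88 ± 0.56, adjusted p = 0.0464). KCTD12, an auxiliary subunit of GABA-B receptors (AMEX60DD048819, 7q, 292092997 to 292103835), stood at 5.5, 21 and 26.6 CPM in the controls of 3 dpe and at 124, 102 and 142 CPM at 8 dpe. Overexpressing cells held 164 to 287 CPM (median 209) at 3 dpe and 169 to 276 CPM (median 186) at 8 dpe. The control cells therefore came close to a level that overexpressing cells already had at 3 dpe (interaction −2.81 ± 0.50, adjusted p = 0.0342), and the effect at 8 dpe, 0.79, was not called (adjusted p = 0.16).

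A pair of transcription factors of skeletal development had a called rise at 3 dpe and a point estimate below 0, not called, at 8 dpe. NFATC1, a calcineurin-regulated factor known from osteoclasts and heart valves (AMEX60DDU001005462, contig C0032080, 58023 to 570480), stood at 5.18, 5.87 and 11.2 CPM in control cells at 3 dpe. At 8 dpe the controls held 58.2, 76.5 and 65.3 CPM. Overexpressing libraries held 16.5 to 38.7 CPM (median 24.6) and then 30.6 to 50.9 CPM (median 37.9). All 6 lay above the controls at 3 dpe and all 6 below them at 8 dpe. The log2 fold change was 1.76 at 3 dpe (adjusted p = 0.00033) and −0.80 at 8 dpe (adjusted p = 0.0658), with an interaction of −2.57 ± 0.42 (adjusted p = 0.024). RUNX2, a factor of cartilage hypertrophy and bone formation (AMEX60DD032922, 4p, 222934982 to 223197664), stood at 11.2, 13.9 and 12.7 CPM in the controls of 3 dpe and at 78.4, 60.6 and 120 CPM at 8 dpe. Overexpressing cells held 30.3 to 62.6 CPM (median 48.8) and then 33 to 93.4 CPM (median 61.6), so that the groups overlapped at 8 dpe. The interaction was −2.32 ± 0.45 (adjusted p = 0.0464). NFATC1 and RUNX2 each have 2 gene models with their symbol, between which reads could have been divided, and the model with the higher mean count is given.

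DHRS3 reduces retinaldehyde and so limits the making of retinoic acid. It was the only called gene of the list of proximal identity and retinoic acid genes (AMEX60DD052111, 8q, 187113673 to 187278528). Control cells stood at 5.54, 4.59 and 12.6 CPM at 3 dpe and at 18.7, 27.8 and 31.2 CPM at 8 dpe, and overexpressing cells at 41.8 to 69.6 CPM (median 55.7) and then 24.1 to 45 CPM (median 38.3). The log2 fold change was 2.87 at 3 dpe and 0.49 at 8 dpe (adjusted p = 0.334), with an interaction of −2.38 ± 0.45 (adjusted p = 0.0446).

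LGR6, a receptor for R-spondins that strengthens Wnt signalling, was the only fall that faded (AMEX60DD008622, 13p, 71863846 to 72130313). Control cells stood at 9.4, 9.76 and 16.2 CPM at 3 dpe and at 16.1, 17.6 and 10.8 CPM at 8 dpe. Tig1 cells stood at 2.29, 1.82 and 5.92 CPM and then at 12.9, 5.46 and 6.79 CPM. Tig1P155A cells stood at 0.091, 0.096 and 0.051 CPM, 4 counts in all, and then at 14.1, 16.4 and 7.68 CPM. Every overexpressing library was below every control at 3 dpe, and 3 of the 6 still were at 8 dpe. Here the overexpressing cells moved, by 4.28 on the log2 scale (adjusted p = 0.000184), and the interaction was 3.94 ± 0.66 (adjusted p = 0.024). LGR6 was also the only gene (0.00394% of those tested) whose change from 3 to 8 dpe differed between the forms. It differed by −5.91 for Tig1 minus Tig1P155A (adjusted p = 0.0356), and the test rests on the 4 counts above. LGR6 has 2 gene models with that symbol. At an unadjusted p under 0.05 this comparison gave 1235 genes, and with DESeq2 at an adjusted p under 0.05 it gave 32.

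PLAU and PRDM1 were a rise that grew and a rise that appeared at 8 dpe. PLAU, the urokinase that activates plasminogen at the cell surface (AMEX60DD052157, 8q, 211646677 to 211670230), stood at 27.4, 35.7 and 42.7 CPM in the controls of 3 dpe and at 8.06, 6.54 and 4.25 CPM at 8 dpe. Overexpressing cells held 91.2 to 232 CPM (median 141) and then 83.8 to 195 CPM (median 180). They kept their level while controls fell, and the log2 fold change went from 2.04 to 4.69 (interaction 2.65 ± 0.42, adjusted p = 0.024). PRDM1, a transcriptional repressor also called Blimp-1 (AMEX60DD034088, 4p, 919619299 to 919876257), stood at 41.8, 91.3 and 85 CPM in the controls of 3 dpe and at 7.4, 13.8 and 7.72 CPM at 8 dpe. Overexpressing cells held 38.8 to 58 CPM (median 50.1) and then 20.9 to 40.9 CPM (median 29.9). The groups overlapped at 3 dpe, and at 8 dpe all 6 overexpressing libraries lay above the controls (interaction 2.22 ± 0.42, adjusted p = 0.0446).

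**Figure D3:**
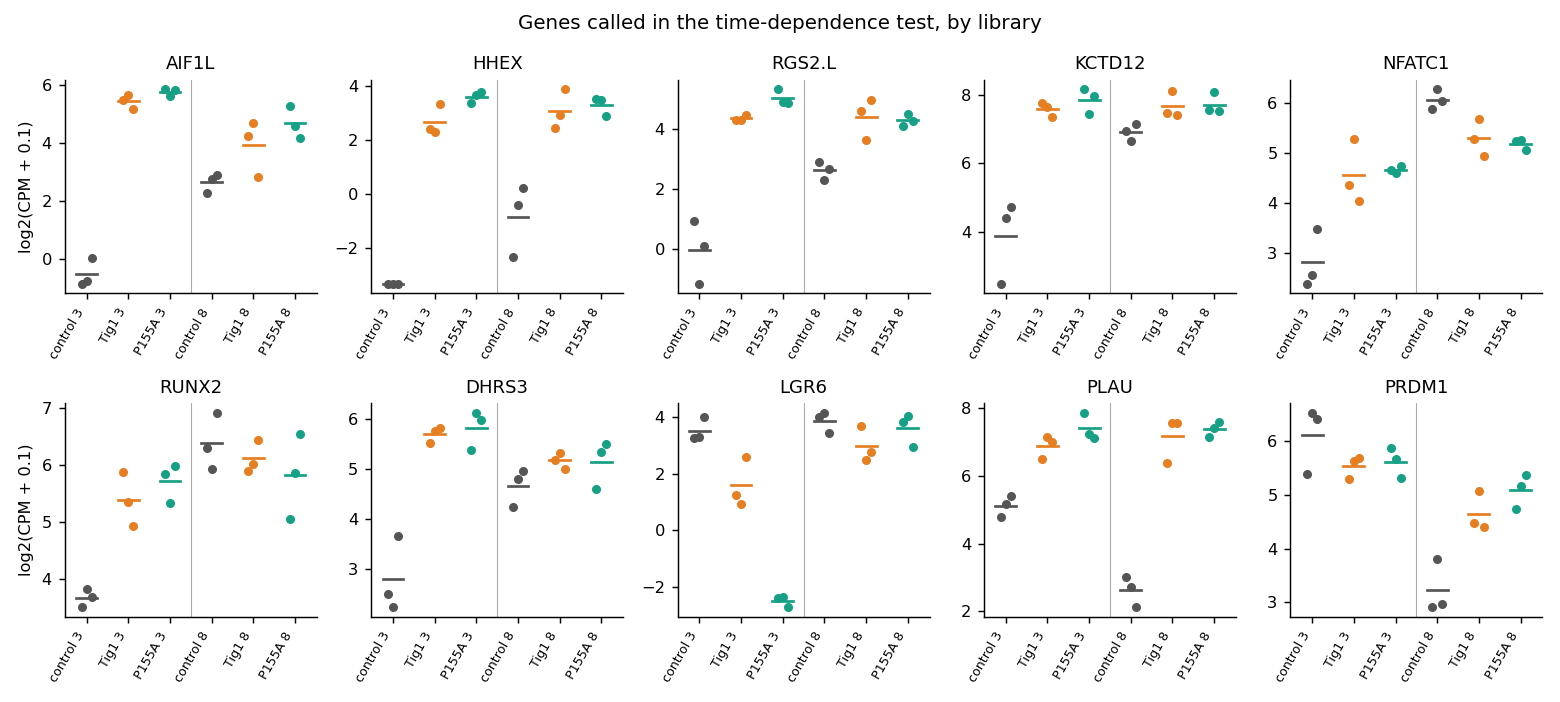
Level in every library, as the log2 of CPM plus a small constant, of the 10 called genes described above, for both times and all 3 kinds of cell. Dots are libraries and lines are group means. Control means are higher at 8 than at 3 dpe for AIF1L, HHEX, RGS2.L, KCTD12, DHRS3, RUNX2 and NFATC1. At 8 dpe the NFATC1 controls lie above all 6 overexpressing libraries. The RUNX2 controls overlap the overexpressing libraries, with a log2 fold change of −0.40 at 8 dpe. Control means are lower at 8 dpe for PLAU and for PRDM1, which goes from above to below the overexpressing cells.

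The other called genes named here were chosen after their values were seen. SLC40A1, the iron exporter ferroportin, stood at 1.91, 2.09 and 4.02 CPM in the controls of 3 dpe and at 13, 8.57 and 9.82 CPM at 8 dpe. It stood at 188 to 454 CPM (median 271) and then 200 to 384 CPM (median 235) in overexpressing cells (interaction −2.09 ± 0.39, adjusted p = 0.0446). CLCN7, the chloride and proton exchanger of lysosomes, went from 105 to 250 CPM at 3 dpe to 44.4 to 107 CPM at 8 dpe in overexpressing cells, against 4.54 to 6.42 and 9.24 to 14.4 CPM in control cells. Its interaction was −2.09 ± 0.41 (adjusted p = 0.047). NAAA, a lysosomal amidase, had an interaction of −2.56 ± 0.39 (adjusted p = 0.0195). All 3 stayed well above control at 8 dpe, with log2 fold changes of 4.61, 2.68 and 3.28. CD9, a tetraspanin of the plasma membrane, behaved otherwise. Overexpressing cells held 184 to 240 CPM at 3 dpe and 96.5 to 172 CPM at 8 dpe, and control cells 58.8 to 76.7 and then 127 to 199 CPM, so that the groups overlapped at 8 dpe (interaction −1.92 ± 0.32, adjusted p = 0.024). DR999_PMT05800, a locus tag without a gene name, stood at 17.2 to 25.9 CPM in control and 34.6 to 58.6 CPM in overexpressing cells at 3 dpe. At 8 dpe it stood at 42.2 to 59 and 22.9 to 39.3 CPM, with no overlap at either time and opposite order. LOC115482310, the most firmly called of all, fell in control cells from 17.8, 21.4 and 16.3 CPM to 1.41, 1.21 and 0.96 CPM and stood at 124 to 224 and 86.8 to 233 CPM in overexpressing cells (interaction 3.83 ± 0.46, adjusted p = 0.00186). SLC40A1, CD9 and LOC115482310 each have 2 gene models with that symbol.

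In the 36 called genes the interaction had the same sign in both forms of Tig1, though not always a like size. Tested alone, the interaction of Tig1 was called for 3 genes (0.0118%) and that of Tig1P155A for 10 (0.0394%). Both use the same control libraries, so they are not independent of each other. For all 36 genes the sign was the same in both forms as in their average, 3 being called for Tig1 alone and 9 for Tig1P155A alone. The 36 were chosen by that average, and control cells moved more than overexpressing cells in 31 of them. The likeness of sign is therefore largely built into the choice. LGR6 had an interaction of 0.99 for Tig1 and 6.90 for Tig1P155A. AIF1L was called in each (adjusted p = 0.0133 and 0.0107).

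Among programs, DNA replication showed the plainest fading of a fall. Overexpressing cells held fewer transcripts of these genes at 3 dpe and regained part of them by 8 dpe. The control mean of their sum at 8 dpe was 0.853 of that at 3 dpe. Summed over the 44 genes tested, control libraries held 2272, 2983 and 3391 CPM (lowest, median and highest) at 3 dpe and 2126, 2140 and 3112 CPM at 8 dpe. Overexpressing libraries held 423 to 891 CPM (median 755) and then 1180 to 1694 CPM (median 1477), so that their mean went from 0.249 to 0.582 of the control mean. The overexpressing libraries lay below every control at both times. Of the 44 genes, 36 were called lower at 3 dpe and 8 at 8 dpe. In overexpressing cells 15 were called higher at 8 than at 3 dpe and none lower, beside 4.65% and 1.33% of all genes. None was called in the interaction (edgeR, adjusted p under 0.05). At an unadjusted p under 0.05, 22 of 44 were above 0 and 0 below, beside 5.31% and 4.17% of all genes. The median interaction was 1.27, against 0.14 over all genes tested, and it stayed between 1.13 and 1.52 in every setting. In bulk RNA, fewer cells of a kind and less RNA per cell cannot be told apart, here and in all results below.

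PCNA.L, the sliding clamp of DNA polymerases, stood at 351 to 765 CPM in control cells at 3 dpe and 260 to 491 CPM at 8 dpe. Overexpressing libraries held 28.7 to 118 CPM (median 76.7) and then 113 to 204 CPM (median 183). Its log2 fold change was −2.79 at 3 dpe (adjusted p = 7.97e-06) and −1.02 at 8 dpe (adjusted p = 0.061). For MCM3, a subunit of the replicative helicase, the same values were −1.83 (adjusted p = 0.000109) and −0.27 (adjusted p = 0.625). At 8 dpe 2 of the 6 overexpressing libraries reached the range of the controls for MCM3, while for PCNA.L none did. RRM2, a subunit of ribonucleotide reductase, and TYMS, thymidylate synthase, had interactions of 1.56 and 1.84 with adjusted p-values of 0.307 and 0.313.

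Genes of mitosis and chromosome segregation were also lower at 3 dpe and less so at 8 dpe. Their median interaction was 0.92, and 0.45 without the 5 libraries that stood apart. The mean of their sum went from 0.393 to 0.622 of the control mean, with the control mean 1.34 times higher at 8 than at 3 dpe. Of 58 tested, 43 were called lower and 1 higher at 3 dpe, and 7 lower and 1 higher at 8 dpe. The median log2 fold change was −1.76 and then −0.79. In overexpressing cells 29 were called higher at 8 than at 3 dpe and none lower, beside 4.65% and 1.33% of all genes. At an unadjusted p under 0.05 the interaction was above 0 in 12 (20.7%) and below 0 in none, beside 5.31% and 4.17% of all genes. It was called by edgeR in 0 of them. KIF4A, a motor of the mitotic spindle, stood at 18.9, 25.1 and 27.1 CPM in control cells at 3 dpe. In overexpressing cells it stood at 1.33 to 8.26 CPM (median 4.27) at 3 dpe and 13.2 to 32 CPM (median 21.9) at 8 dpe, when controls held 35.8 to 37.6 CPM. All 6 libraries remained below the controls. CDK1.L, the kinase that drives entry into mitosis, and PLK1, a kinase of centrosomes and spindle, had interactions of 1.72 and 1.70 (adjusted p = 0.374 and 0.476). The list of G1 cyclins, CDK inhibitors and p53 targets had 26 genes tested. At an unadjusted p under 0.05 the interaction was above 0 in 2 (7.69%) and below 0 in 0, beside 5.31% and 4.17% of all genes. The summed CPM of this list in overexpressing cells was 1.13 times that of controls at 3 dpe and 1.19 times at 8 dpe.

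Limb signalling genes and the distal program were lower at both times, and by their medians less so at 8 dpe. Of 56 hedgehog, FGF, BMP and Wnt pathway genes, 37 were called lower and 3 higher at 3 dpe, beside 15.5% and 16.9% of all genes. At 8 dpe 15 were called lower and 3 higher, beside 3.53% and 11.9%. The interaction had a median of 1.08 and was called in 0. At an unadjusted p under 0.05 it was above 0 in 13 (23.2%) and below 0 in 0, beside 5.31% and 4.17% of all genes. ETV4, a transcription factor induced by FGF signalling, stood at 101 to 178 CPM in control cells and 20.5 to 56.5 CPM (median 34.4) in overexpressing cells at 3 dpe. At 8 dpe the groups overlapped at 47.8 to 76.3 and 36.8 to 75.9 CPM, and all 3 controls of 8 dpe lay below those of 3 dpe. FZD7, a Wnt receptor, stayed without overlap at both times, at 15.8 to 41.6 against 0.663 to 5.31 CPM and then at 28.8 to 33.5 against 4.36 to 12.4 CPM.

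Of 27 genes of distal limb identity, 21 were called lower at 3 dpe and 8 at 8 dpe, with medians of −3.07 and −1.84. The interaction was called in 0 of them. At an unadjusted p under 0.05 it was above 0 in 2 (7.41%) and below 0 in 0, beside 5.31% and 4.17% of all genes. HoxA13 stood at 77.2, 77.1 and 116 CPM in the controls of 3 dpe and at 82.9, 85.1 and 80.6 CPM at 8 dpe. Tig1 cells held 28.9, 11.1 and 3.13 CPM and then 20.8, 11.9 and 16.6 CPM, and Tig1P155A cells 9.01, 8.73 and 2.19 CPM and then 29.6, 40.4 and 18.5 CPM. Every overexpressing library was below every control at both times. The log2 fold change was −3.20 at 3 dpe and −1.91 at 8 dpe, and the interaction of 1.29 ± 0.70 was not called (adjusted p = 0.589). By form it was 0.30 for Tig1 and 2.27 for Tig1P155A, a difference that edgeR did not call (adjusted p = 0.972). TBX5, a forelimb transcription factor of the connective tissue list, went from −3.36 to −1.85. In overexpressing cells it stood at 3.21 to 10.9 CPM (median 7.54) and then at 20 to 40.3 CPM (median 27.1), an increase that passed the test between the times (adjusted p = 0.000406). Its interaction did not (1.51 ± 0.45, adjusted p = 0.238).

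Of the 38 genes that the study names for this experiment, 33 were matched and 0 were called in the interaction by edgeR, with 8 at an unadjusted p under 0.05. For 28 of the 33 the effect was smaller at 8 dpe. Among all genes called at 3 dpe, the effect was smaller at 8 dpe in 76.9% of those called higher and 97.2% of those called lower. The genes were picked by the study on these samples, so their direction at either time is not independent evidence. PROD1, a proximal cell surface protein, was among the exceptions. It stood at 1.91, 0.232 and 4.71 CPM in the controls of 3 dpe and at 0 in all 3 at 8 dpe. Tig1 cells held 92.7, 38.2 and 77.2 CPM and then 7.76, 9.89 and 2.43 CPM, and Tig1P155A cells 85.5, 61.1 and 35.8 CPM and then 2.87, 9.1 and 8.53 CPM. The level fell in overexpressing cells (−3.25 on the log2 scale, adjusted p = 0.00273) as it did in control cells (adjusted p = 0.0152). At 8 dpe overexpressing cells were at least 197-fold higher with 3 counts over the controls as the floor, and the interaction (adjusted p = 0.339) was not called. MEIS1 had 3 counts in the controls of 3 dpe against 66 in overexpressing cells, a ratio of 19.2 with a counting interval of 6.28 to 95.4, and its interaction was −1.29 ± 1.60 (adjusted p = 0.904). SHH, the ligand of the posterior limb margin, stood at 43 to 48.6 CPM in control and 0 to 6.1 CPM in overexpressing cells at 3 dpe. By 8 dpe it had 210 counts in controls and 2 in overexpressing cells, a ratio of 0.00733 (counting interval 0.000882 to 0.0268). At that time 5 of the 6 overexpressing libraries lay below every control. The change of SHH in control cells between the times was −4.18 (adjusted p = 0.279). Its interaction of −2.34 ± 1.89 was not called (adjusted p = 0.775).

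Other genes of the study differed in size or sign between the times without passing the interaction test. EPHA7, an ephrin receptor, stood at 3.22 to 5.04 CPM in control and 0 to 0.735 CPM in overexpressing cells at 3 dpe. At 8 dpe it stood at 4.34 to 6.13 and 0 to 4.59 CPM, and the groups overlapped. IGFBP1, a binding protein of insulin-like growth factors, had a log2 fold change of −3.22 at 3 dpe and was not called at 8 dpe (−0.30, adjusted p = 0.797), its controls having gone from 23.9 to 41.5 CPM to 2.07 to 14.5 CPM. BCL11A, a zinc finger repressor, rose in control cells from 11.5 to 27.3 CPM at 3 dpe to 71.1 to 93.7 CPM at 8 dpe (adjusted p = 0.00403). Overexpressing cells held 25.2 to 39.3 CPM and then 42.6 to 62.6 CPM, so that 5 of the 6 libraries lay above every control at 3 dpe and all 6 below at 8 dpe. The log2 fold change was 0.91 (adjusted p = 0.0228) and then −0.66 (adjusted p = 0.12), and the interaction was −1.57 ± 0.40 (adjusted p = 0.154).

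Most matrix genes called were lower at both times, and the sums rose with time in both kinds of cell. The mean sum of collagens at 8 dpe was 2.93 times that at 3 dpe in overexpressing and 2.02 times in control cells. Of 26 collagens, 18 were called lower at 3 dpe and 9 at 8 dpe, none higher. In overexpressing cells 16 were called higher at 8 than at 3 dpe and none lower, beside 4.65% and 1.33% of all genes. The interaction was called in 0 of them. At an unadjusted p under 0.05, 3 interactions (11.5%) were above 0 and 0 below, beside 5.31% and 4.17% of all genes. The sum went from 903 to 5301 CPM (median 1624) to 3127 to 15980 CPM (median 4356) in overexpressing libraries, against 3701 to 11600 and 13090 to 22770 CPM in controls. The lowest control at 3 dpe was replicate 1, the highest overexpressing library was Tig1P155A replicate 3 at 3 dpe and Tig1 replicate 1 at 8 dpe, the libraries rich in cartilage genes. Their part in this result was not tested, and without the 5 libraries that stood apart the median interaction was 0.84 against 0.97 with them, and without Tig1 replicate 1 at 8 dpe alone it was 0.63. COL4A1, a basement membrane collagen, stood at 10.6 to 35.6 CPM in control and 0 to 3.79 CPM (median 1.56) in overexpressing cells at 3 dpe, and at 45.2 to 85.7 and 10.7 to 58.2 CPM (median 17.8) at 8 dpe. Of 46 other matrix proteins and enzymes, 32 were called lower and 3 higher at 3 dpe, beside 15.5% and 16.9% of all genes. At 8 dpe 26 were called lower and 1 higher, beside 3.53% and 11.9%. The interaction was called in 0 of them, and at an unadjusted p under 0.05 it was above 0 in 6 (13%) and below 0 in 3 (6.52%). Their mean sum at 8 dpe was 1.99 times that at 3 dpe in overexpressing and 1.48 times in control cells. TIMP1 and TIMP3, inhibitors of matrix metalloproteinases, were not alike. TIMP1 had log2 fold changes of 2.69 at 3 dpe and 0.35 at 8 dpe, and TIMP3 of −4.49 and −2.06, with interactions of −2.34 and 2.43 (adjusted p = 0.154 and 0.513).

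Of 29 connective tissue and limb mesenchyme genes, 22 were called lower and 1 higher at 3 dpe, and 13 lower and 1 higher at 8 dpe. The interaction was called in 0 of them. At an unadjusted p under 0.05 it was above 0 in 3 (10.3%) and below 0 in 2 (6.9%), beside 5.31% and 4.17% of all genes. PDGFRA, a receptor that marks limb mesenchyme, stood at 43.3 to 162 CPM in control and 1.06 to 13.7 CPM (median 6.84) in overexpressing cells at 3 dpe. The levels of 8 dpe were 255 to 369 and 43 to 96.2 CPM (median 61.2). Both kinds of cell were higher at the later time, and the overexpressing libraries remained below every control.

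Myeloid genes were higher in overexpressing cells, and their median effect was no smaller at 8 dpe (6.51 and then 7.50). Of 27 macrophage and myeloid genes tested, 25 were called higher at 3 dpe and 26 at 8 dpe, and none lower. They summed to 361 to 435 CPM in control and 9194 to 14220 CPM (median 10200) in overexpressing libraries at 3 dpe. At 8 dpe they summed to 229 to 271 and 4784 to 8131 CPM (median 6950). The ratio of means was 27.4 and 26.1, so both kinds of cell held less at 8 dpe by a like factor. The median interaction was 0.25, and it changed sign among the settings tried (−0.23 to 0.84). No member was called, with 3 (11.1%) above 0 and 2 (7.41%) below at an unadjusted p under 0.05, beside 5.31% and 4.17% of all genes. Of the defining markers, VAV1 had 0 counts in all control libraries, and PTPRC, CSF1R and SPI1 had 284, 192 and 11 counts over the 3 control libraries of 3 dpe and 127, 150 and 3 over those of 8 dpe. Myeloid markers thus moved with the overexpression effect at both times, and their part in the other results was not tested.

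Point estimates of single myeloid and phagocytic genes went both ways, and none of the genes named here was called in the interaction. DOCK2, an activator of Rac in leukocytes, just missed the threshold with −3.18 ± 0.64 (adjusted p = 0.0522), its controls having gone from 0.232 to 1.32 CPM to 3.96 to 7.43 CPM. CSF3R, the receptor of granulocyte colony-stimulating factor, had an interaction of 3.32 ± 1.23 (adjusted p = 0.386) with 64 counts in the controls of 3 dpe and 5 in those of 8 dpe. STAB1, a scavenger receptor of the complement and phagocytic receptor list, had 0 counts in the controls of 3 dpe against 755 in overexpressing cells, at least 219-fold higher. At 8 dpe all 6 overexpressing libraries still lay above every control for STAB1. Of the 17 genes of the complement and phagocytic receptor list, 11 were called higher and 3 lower at 3 dpe and 11 higher and 1 lower at 8 dpe. AXL, a receptor for apoptotic cells, was not called at 3 dpe (−0.18) and was higher by 1.57 at 8 dpe (adjusted p = 0.00136), its controls having gone from 102 to 124 CPM to 28.6 to 38.4 CPM. Its interaction was not called (1.75 ± 0.41, adjusted p = 0.131).

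Lysosomal genes stayed higher than in control cells, and some of them came down with time in overexpressing cells. Of 37 genes for lysosomal enzymes, cathepsins and the proton pump, 30 were called higher at 3 dpe and 29 at 8 dpe, with 1 lower at each time. In overexpressing cells 8 were called lower at 8 than at 3 dpe and none higher, beside 1.33% and 4.65% of all genes. The interaction was below 0 in 6 (16.2%) and above 0 in none at an unadjusted p under 0.05, beside 4.17% and 5.31% of all genes, and edgeR called 0. Overexpressing libraries summed to 19900 to 34230 CPM (median 30880) at 3 dpe and 9574 to 24680 CPM (median 18640) at 8 dpe, against 1718 to 2466 and 1186 to 1838 CPM in controls. The ratio of means went from 14.4 to 11.8. ATP6V1E1, a subunit of the proton pump, stood at 39.3 to 63.5 and 46.1 to 60.3 CPM in control cells and at 429 to 571 and then 91 to 234 CPM in overexpressing cells. The groups did not overlap at either time. Its fall with time in overexpressing cells passed the test (adjusted p = 0.00137) and its interaction of −1.47 ± 0.38 did not (adjusted p = 0.154).

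Among 27 genes of lipid uptake, storage and lipoproteins, 14 were called higher and 4 lower at 3 dpe, and 9 higher and 0 lower at 8 dpe. DGAT2, which makes triglycerides, stood at 0.318 to 1.06 and 0.36 to 0.96 CPM in control cells and at 20.3 to 67.7 and then 7.4 to 13.6 CPM in overexpressing cells. The interaction of DGAT2 was not called. NR1H3, the liver X receptor, went the other way relative to control. Its controls went from 2.03 to 3.41 CPM to 0.229 to 0.659 CPM, and overexpressing cells from 65.7 to 119 CPM to 23.4 to 77.7 CPM (interaction 1.64 ± 0.50, adjusted p = 0.25). Of 35 interferon response and innate sensing genes, 25 were called higher at 3 dpe and 21 at 8 dpe. At an unadjusted p under 0.05, 3 of their interactions (8.57%) were above 0 and 6 (17.1%) below, beside 5.31% and 4.17% of all genes. The 51 nuclear genes of oxidative phosphorylation had a median interaction of 0.03 and none past an unadjusted p of 0.05 in either direction, so no difference between the times was detected for them. Ribosomal protein genes, 69 in number, had 20 called lower at 3 dpe and 0 called at 8 dpe. Control replicate 1 at 3 dpe held 45810 CPM of them against 24890 and 26790 in the other controls, and their median interaction of 0.41 was 0.05 without that library and −0.12 without the 5 libraries.

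**Figure D4:**
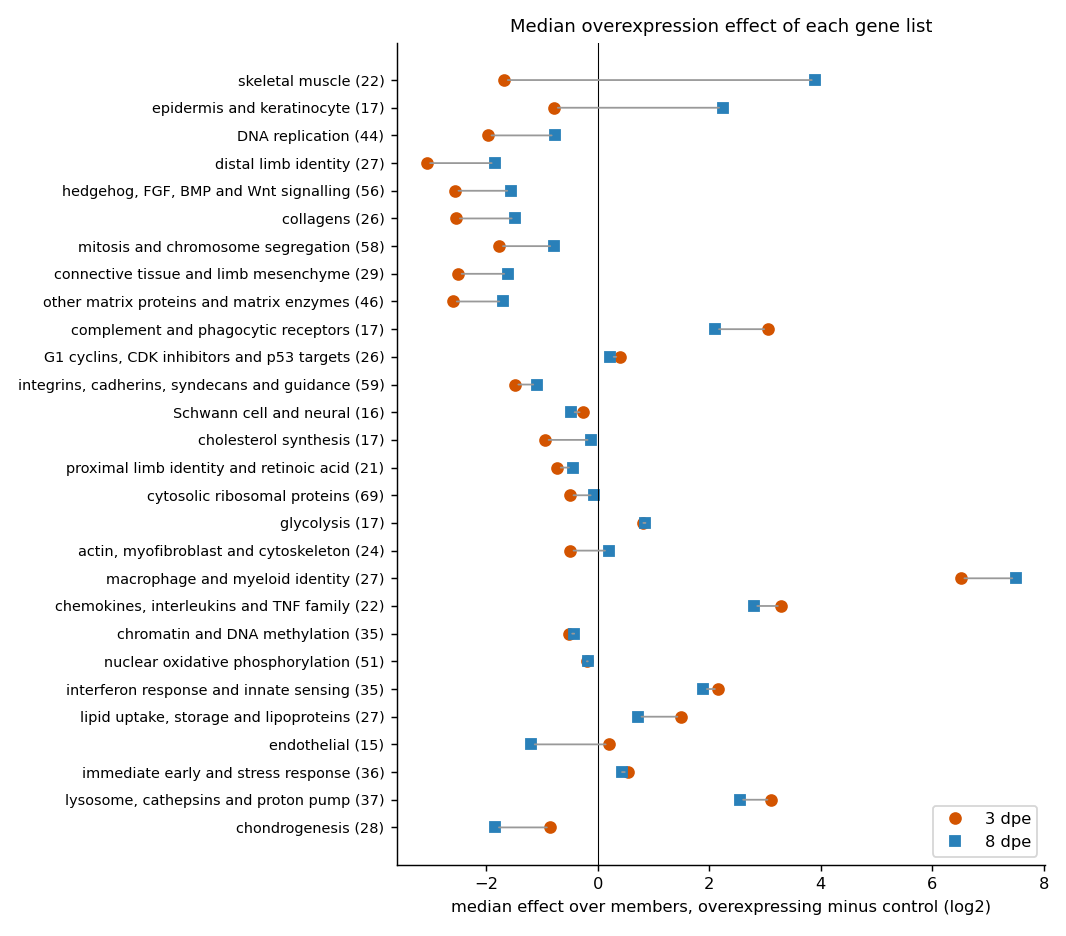
Median log2 fold change of overexpressing over control cells in the gene lists at 3 dpe (circles) and 8 dpe (squares). The neutrophil granule, lymphocyte, erythroid and thrombocyte lists are not drawn. Lists lower at 3 dpe such as DNA replication (−1.97 and −0.76) and mitosis (−1.76 and −0.79) lie nearer to 0 at 8 dpe, while myeloid genes (6.51 and 7.50) do not.

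Cartilage genes lay further below control at 8 dpe by their median, a direction that turned without the libraries that stood apart. In control cells the 28 chondrogenesis genes summed to 708 to 2048 CPM at 3 dpe and 4869 to 11880 CPM at 8 dpe. In overexpressing cells they summed to 260 to 5580 CPM (median 407) and 1024 to 9533 CPM (median 1584). The highest library at each time was the one named above as rich in them. The median log2 fold change was −0.85 at 3 dpe and −1.84 at 8 dpe. At 3 dpe 5 genes were called lower and 2 higher, beside 15.5% and 16.9% of all genes. At 8 dpe 3 were called lower and 1 higher, beside 3.53% and 11.9%. At an unadjusted p under 0.05 the interaction was above 0 in 0 and below 0 in 3 (10.7%), beside 5.31% and 4.17% of all genes. RUNX2 was the only member called in the interaction. The median interaction of −0.94 was 0.44 without the 5 libraries and 1.08 without Tig1P155A replicate 3 at 3 dpe alone.

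Skeletal muscle genes had a median effect of −1.68 at 3 dpe and 3.90 at 8 dpe. Of 22 tested, 8 were called higher and 1 lower at 8 dpe, beside 11.9% and 3.53% of all genes. At 3 dpe 1 was called higher and 3 lower, beside 16.9% and 15.5%. At an unadjusted p under 0.05 the interaction was above 0 in 11 (50%) and below 0 in 1 (4.55%), beside 5.31% and 4.17% of all genes. It was called in 0 of them. At 3 dpe they summed to 141 to 341 CPM (median 221) in overexpressing libraries against 216 to 523 CPM in controls. They summed to 156 to 3055 CPM (median 210) in overexpressing libraries at 8 dpe against 76.6 to 162 CPM in controls. The 2 highest libraries were Tig1 replicate 3 and Tig1P155A replicate 1, and without both the median interaction was 2.96 instead of 5.11. MYL1, a myosin light chain, stood at 0.61 to 118 CPM in the controls of 3 dpe and 0.628 to 3.47 CPM in those of 8 dpe, and at 5.31 to 230 CPM (median 13.6) in overexpressing cells at 8 dpe. Its interaction of 8.58 ± 2.08 was not called (adjusted p = 0.141). Epidermal genes had medians of −0.78 and 2.24 over 17 tested. Tig1 replicate 1 at 8 dpe held 2788 CPM of them, the highest of all overexpressing libraries, and the median interaction of 2.41 was 0.44 without that library, 0.60 without Tig1P155A replicate 1 at 8 dpe and −1.94 without the 5 libraries.

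**Figure D5:**
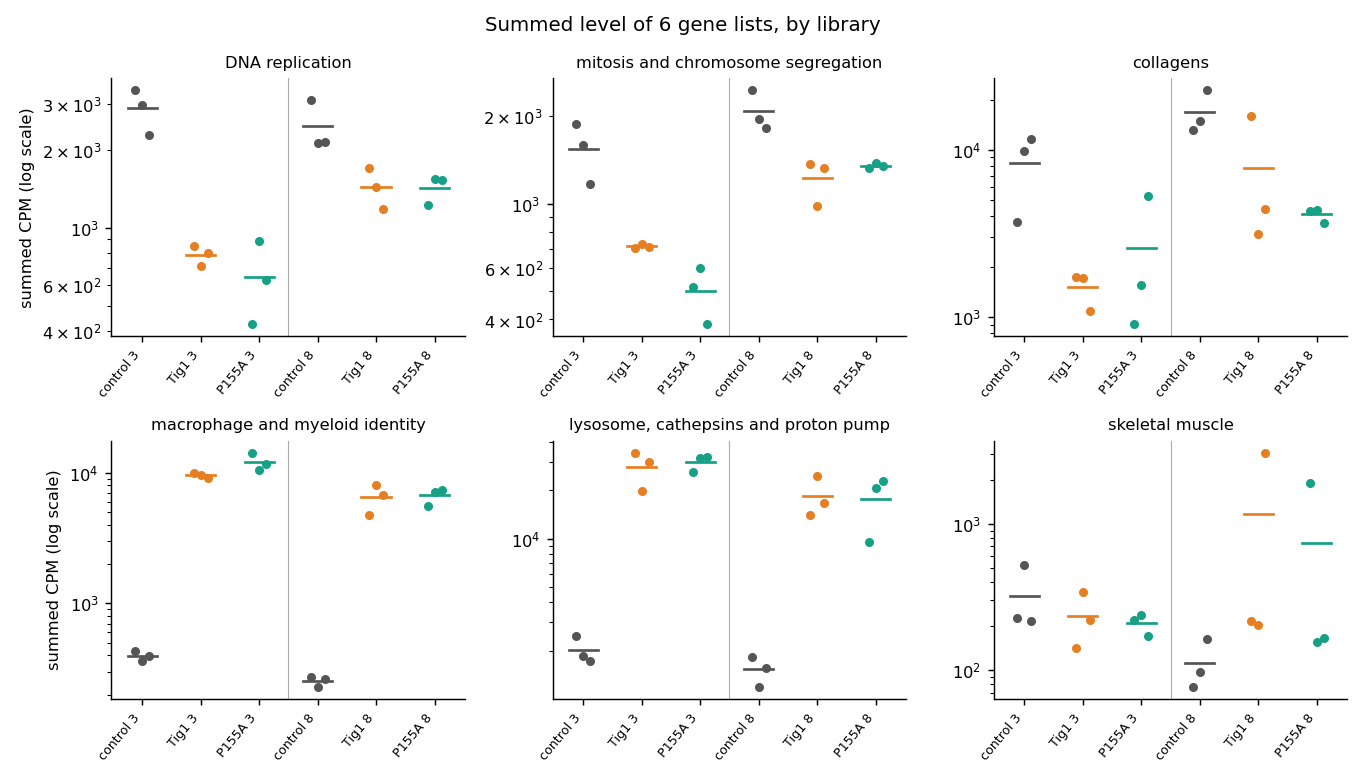
Summed CPM of 6 gene lists in every library (log axis), by kind of cell and time. DNA replication and mitosis genes are nearer to the controls at 8 dpe, and myeloid and lysosomal genes stay far above them. The highest sums of muscle genes, 3055 and 1912 CPM, are in 2 overexpressing libraries of 8 dpe.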

How the data were processed

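RNA of 18 libraries was measured by SMARTseq2. The values deposited by the authors are raw counts of uniquely aligned reads per gene model, without normalization. Tools named in the submitters' processing notes are bcl2fastq 2.19.1, STAR 2.7.6a and featureCounts 2.0.1, with AmexG_v6.0-DD as the build. The strandedness of the counting is not given in the sources used here, so reads of overlapping and antisense genes cannot be told apart.

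The 92 ERCC rows, without counts, were left out, and 37 mitochondrial genes were kept. The 25377 genes that reached 0.5 CPM in 1 or more libraries were tested in R 4.3.3 with edgeR 4.0.16 (TMM, quasi-likelihood test, 1 mean per group, 12 residual degrees of freedom, Benjamini-Hochberg adjustment over all genes, called at an adjusted p under 0.05). The scripts were tested on simulated data. DESeq2 1.42.0 was an alternative. The package data.table (version 1.17.8) read the counts, and Python 3.11.15 with matplotlib 3.10.9 drew the figures. Counting intervals (95%) and floors of 3 counts cover counting error only.

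Named genes are, in each class of called genes, the 5 with the largest interaction that had a symbol and a mean of 4 CPM or more, the genes the study names, called members of the lists, and single list members shown for their role. The 32 lists (22 programs, 10 cell types) and all genes to describe were chosen with earlier results of these data known. Where several models shared a symbol, that with the highest mean count was used. Alternatives were DESeq2's size factors, library size alone, no mitochondrial genes, looser and stricter filters, DESeq2, the replicate number in the model, each library left out once and a threshold of 0.001. Leaving out 2 or 5 libraries together was added after the data had been seen. Nothing was paired.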

Additional observations from a re-analysis of the deposited data

Results flagged for a closer look

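For 36 genes the effect of overexpression at 8 dpe differed from that at 3 dpe by the interaction test of edgeR (adjusted p between 0.00186 and 0.0488). The sign was the same in both Tig1 forms, which is largely built into a choice by their average against shared controls. The values here are interaction log2 fold changes, the effect at 8 dpe minus that at 3 dpe. Among the genes with the largest differences below 0, the value was −6.49 for HHEX, −4.48 for AIF1L, −4.39 for LOC115815443, −3.94 for LOC102567000 and −3.82 for LOC115051061. It was −3.44 for LOC102693775, −3.33 for XELAEV_18039998MG, −2.88 for RGS2.L, −2.87 for LOC115643690 and −2.81 for KCTD12. The symbols LOC115815443, LOC115370421, XELAEV_18039998MG and LOC115643690 are each carried by more than 1 gene model (30, 74, 7 and 2 models), so their reads may be divided among near copies.

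Genes of metabolism and protein turnover among the 36 were SMOX, spermine oxidase (−2.36), PYGL, a glycogen phosphorylase (−1.53), PSMF1, an inhibitor of the proteasome (−2.39), and NAAA (−2.56). Transporters and membrane proteins were SLC40A1 (−2.09), CLCN7 (−2.09) and CD9 (−1.92). Transcriptional regulators were NFATC1 (−2.57), RUNX2 (−2.32) and MXD4, a partner of MAX (−1.62). Signalling and RNA-binding proteins were PAK3, a Rac-activated kinase (−2.20), AHCYL1, which binds IP3 receptors (−2.04), SWAP70, a regulator of actin (−1.90), and MBNL3, a splicing factor (−1.78). DHRS3 stood at −2.38 and COBLL1 at −2.47. The remaining values below 0 were −2.54 for LOC115092336, −2.15 for LOC113408079, −2.04 for LOC115461470, −1.82 for XB5829846.L and −1.77 for DR999_PMT05800. XB5829846.L was one of 4 faded rises in which overexpressing cells moved more than controls, from 148 to 273 CPM at 3 dpe to 60.5 to 82.9 CPM at 8 dpe.

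The differences above 0 were 4.44 for LOC115370421, 3.94 for LGR6, 3.83 for LOC115482310, 2.65 for PLAU and 2.22 for PRDM1. LGR6 was flagged again because its change between the times differed between the forms, by −5.91 for Tig1 minus Tig1P155A.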

How the results depend on the processing

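All 36 called genes kept the sign of their interaction in every alternative. The count of calls did not hold: 0 with library size alone (with a median effect over all genes of −0.59 at 3 dpe and −0.43 at 8 dpe, against 0 and 0.06 with TMM), 17 without mitochondrial genes, 12 when 1 CPM in 3 libraries was required, 659 with every gene of at least 1 count, 414 with DESeq2 and 0 at an adjusted p under 0.001. Leaving out single libraries gave 3 to 45. In the order library size alone, every gene, DESeq2 and 0.001, control cells between the times gave 29, 877, 597 and 2 calls, Tig1 alone 0, 404, 134 and 0, Tig1P155A alone 1, 694, 346 and 0, and the difference between the forms 0, 266, 32 and 0. Overexpressing cells between the times gave 2729 with every gene, 2777 with DESeq2 and 79 at 0.001. At 0.001, 3105 genes were called at 3 dpe and 1549 at 8 dpe.

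Leaving out each library in turn gave 6270 to 8707 calls at 3 dpe, 2726 to 4171 at 8 dpe, 870 to 1614 between the times in overexpressing and 31 to 121 in control cells, 0 to 11 for Tig1 alone, 1 to 24 for Tig1P155A alone and 0 to 1 between the forms. Without both muscle-rich libraries, chosen after seeing the data, the interaction gave 6, overexpressing cells 936, Tig1P155A alone 4 and the forms 0. Without all 5 libraries, likewise chosen after seeing the data, the counts were 10 for the interaction, 262 for overexpressing and 55 for control cells, 1 for Tig1 alone, 3 for Tig1P155A alone and 0 for the forms. The causes of these moves were not tested.

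With the replicate number as a block, 35 genes were called, 29 of them among the 36, and 0 for the difference between the forms. Over 18 pairs of the same number, residual correlations lay between −0.258 and 0.213 (mean 0.00972, against −0.00467 for other numbers), so the numbers were not taken to pair the libraries. SHH changed sign with the block (0.0616).

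Other genes that the study names changed sign without having been called. With Tig1 alone HoxA11 was at −0.46, LHX9 at −0.14 and LMO1 at −0.32. With Tig1P155A alone MEIS2 was at −0.32, AFF3 at −0.18 and FN1 at −0.71. Leaving out single libraries gave −0.0099 to 0.96 for HYAL3, −0.21 to 0.98 for FN1, −0.56 to 0.69 for AFF3 (below 0 also at −0.47, −0.07 and −0.03) and −0.38 to 0.69 for HoxA11 (below 0 also at −0.14, −0.11 and −0.0057). AFF3 was at −0.58 without the muscle-rich libraries. Without all 5, HoxA9 was at −0.40, AFF3 at −0.49, LHX9 at −0.36, LMO1 at −0.37 and CDH1.S at −2.03.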

Other observations

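Lists not described above included genes of adhesion, which moved both ways. Of 59 integrins, cadherins, syndecans and guidance genes, 28 were called lower and 10 higher at 3 dpe and 12 lower and 9 higher at 8 dpe. At an unadjusted p under 0.05, 9 of their interactions (15.3%) were above 0 and 7 (11.9%) below, beside 5.31% and 4.17% of all genes. ITGA2, a collagen-binding integrin subunit, stood at 2.32 to 17.4 CPM in control and 0 to 1.34 CPM in overexpressing cells at 3 dpe. At 8 dpe it stood at 8.52 to 10 and 2.21 to 41.1 CPM, so that the groups overlapped (interaction 5.32 ± 1.30, adjusted p = 0.147). ITGB5, an integrin subunit that pairs with the αv chain, was higher by 3.10 at 3 dpe and 1.56 at 8 dpe, and its interaction was not called.

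NGFR, the low-affinity nerve growth factor receptor, stood at 1.45 to 4.45 CPM in control cells and 0 to 0.432 CPM in overexpressing cells at 3 dpe. At 8 dpe it stood at 32.1 to 41.4 and 1.79 to 26.4 CPM, higher than at 3 dpe in both kinds of cell and still below every control. The interaction of NGFR was not called. Of 17 glycolysis genes, 7 were called lower and 2 higher at 8 than at 3 dpe in overexpressing cells, beside 1.33% and 4.65% of all genes. The median change over the 17 was 0.15. Their median effect was 0.82 at 3 dpe and 0.86 at 8 dpe. The interaction was called in 0, with a median of 0.38 that changed sign among the settings tried (−0.28 to 0.56). The sum of these glycolysis genes went from 3956 to 6117 CPM to 1981 to 3349 CPM in overexpressing cells, against 1675 to 2105 and 1248 to 1525 CPM in control cells. KLF2, a factor of quiescent endothelium and leukocytes, rose in control cells from 2.7 to 11.4 CPM to 27.3 to 62.6 CPM (adjusted p = 0.0333), while overexpressing cells held 25.7 to 86.8 and 35 to 115 CPM. The interaction of KLF2 was not called.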
